A study of Mus musculus with 6 samples.

Results

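The 8 genes described here encode proteins that sit on the thick filament of the sarcomere, either at the M-band in its middle or as myosin-binding proteins along its length. They are Myom1, Myom2, Myom3 and Obsl1 of the M-band, and Mybpc1, Mybpc2, Mybpc3 and Mybph of the myosin-binding protein group. They were chosen by symbol and function and not by a rule on measured values, although earlier results of these data were known. They are 8 of the 23367 gene entries in the deposited table. Polyadenylated RNA was sequenced from gastrocnemius muscle, a calf muscle of mostly fast fibres, of wild type FVB mice at 5 stages, with no transgene or treatment in any of them. The stages were embryonic day 18.5 (E18.5, RNA of 21 mice of both sexes in a single pool), postnatal day 2 (PN2, a pool of 6 mice), PN14 (2 libraries, each from 1 mouse), PN28 and adult (22 weeks), the latter stages with a library of 1 mouse each, and the postnatal mice were male. The 6 libraries held between 125402932 and 157868359 fragments counted on genes. Only PN14 was replicated, so a difference between any stages is read against the spread of that pair, and a difference between single animals or pools, or between sequencing lanes, cannot be told apart from a difference between stages.

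The M-band joins neighbouring thick filaments at the centre of the sarcomere. Myomesin (Myom1) is the antiparallel cross-linker found in striated muscle generally, M-protein (Myom2) is known from fast fibres and myomesin 3 (Myom3) from intermediate ones, and Obsl1 encodes a protein that binds myomesin and titin there. Myosin-binding protein C wraps the thick filament in regular stripes and tunes how myosin heads meet actin. Its slow (Mybpc1), fast (Mybpc2) and cardiac (Mybpc3) forms come from separate genes, and myosin-binding protein H (Mybph) is a shorter relative.

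The tissue label was checked first. FPKM gives the fragments of a gene per length of transcript and per size of the library. Summed FPKM of the skeletal fibre markers Acta1, Ckm, Tnnt3 and Mylpf lay between 31290 at E18.5 and 117770 at PN28. The 7 cardiac markers summed to between 13.9 and 52.7 FPKM, nearly all of it Myh6, while the defining heart transcription factors Nkx2-5 and Tbx20 were at or below 0.02 FPKM in all libraries. Other cell types moved with age. The satellite cell markers Pax7, Myf5 and Cdh15 summed to 59.6 FPKM at E18.5 and 6.82 in the adult, the 4 fibroblast markers to 5584 and 169.6, and the 4 endothelial markers to 150 and 53.3. The fibroblast sum was still 1494 at PN28. The endothelial sum did not fall steadily and was highest in PN14 replicate 2, at 207. In such bulk RNA fewer cells of a type and less RNA per cell cannot be told apart, and the part of these cells in the results below was not tested.

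The myosin-binding protein C genes exchanged places between PN2 and PN14. The perinatal muscle held almost only the slow form, and from PN14 on the fast form was the more abundant transcript in all 4 libraries. Mybpc2, the fast form, reached 46.8 FPKM at E18.5, 83.5 at PN2, then 1851 in replicate 1 and 1161 in replicate 2 of PN14, 2059 at PN28 and 1735 in adult muscle. Mybpc1, the slow form, reached 1082 FPKM at E18.5, 1117 at PN2, then 695 and 610 in the same order at PN14, 469 at PN28 and 387 in adult muscle. The PN14 libraries lay well apart for Mybpc2, but the lower of them was still far above both earlier libraries.

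**Figure D1:**
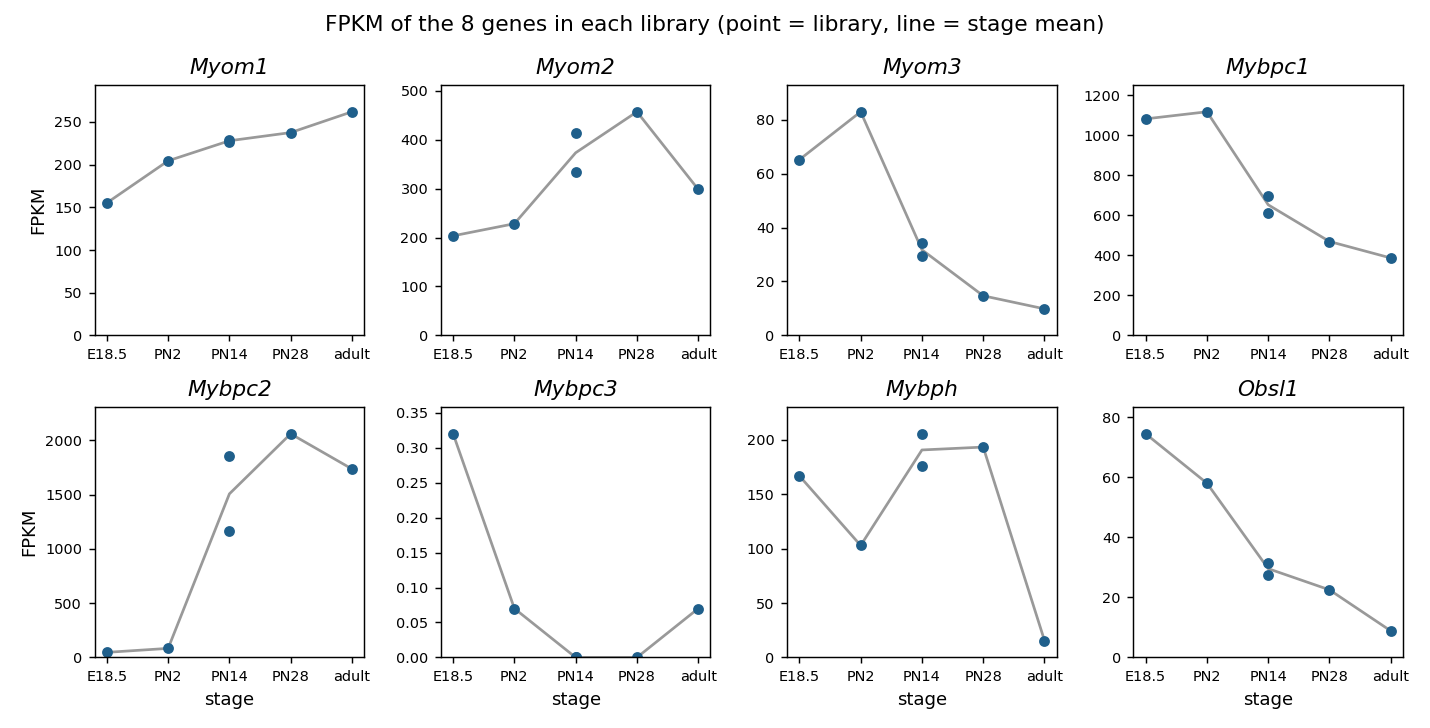
FPKM of each of the 8 genes (vertical axes, linear, each gene on its own scale starting at 0) at the 5 stages (horizontal axis); a point is a library and the line joins the stage means. Mybpc2 climbed from 83.5 at PN2 to 1851 and 1161 at PN14, Mybph dropped from 193 at PN28 to 15.6 in the adult, and Mybpc3 stayed at or below 0.32.

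As a share of the summed FPKM of the 3 MyBP-C genes, a quantity that does not depend on how libraries are scaled to each other, Mybpc2 made up 4.15% at E18.5, 6.95% at PN2, 69.1% ± 5.06 (SD, n = 2) at PN14, 81.4% at PN28 and 81.8% in adult muscle. The Mybpc1 share was 95.8%, 93.0%, 30.9% ± 5.06 (SD, n = 2), 18.6% and 18.2% at the same stages. There were thus 23.1 Mybpc1 transcripts per Mybpc2 transcript at E18.5 and 13.4 at PN2, and afterwards 2.66 and 1.90 Mybpc2 transcripts per Mybpc1 transcript at PN14, 4.39 at PN28 and 4.49 in adult muscle. The ratio thus turned over by PN14, and its PN28 and adult values were closer to each other than the PN14 pair was. These shares and ratios carry no test.

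**Figure D2:**
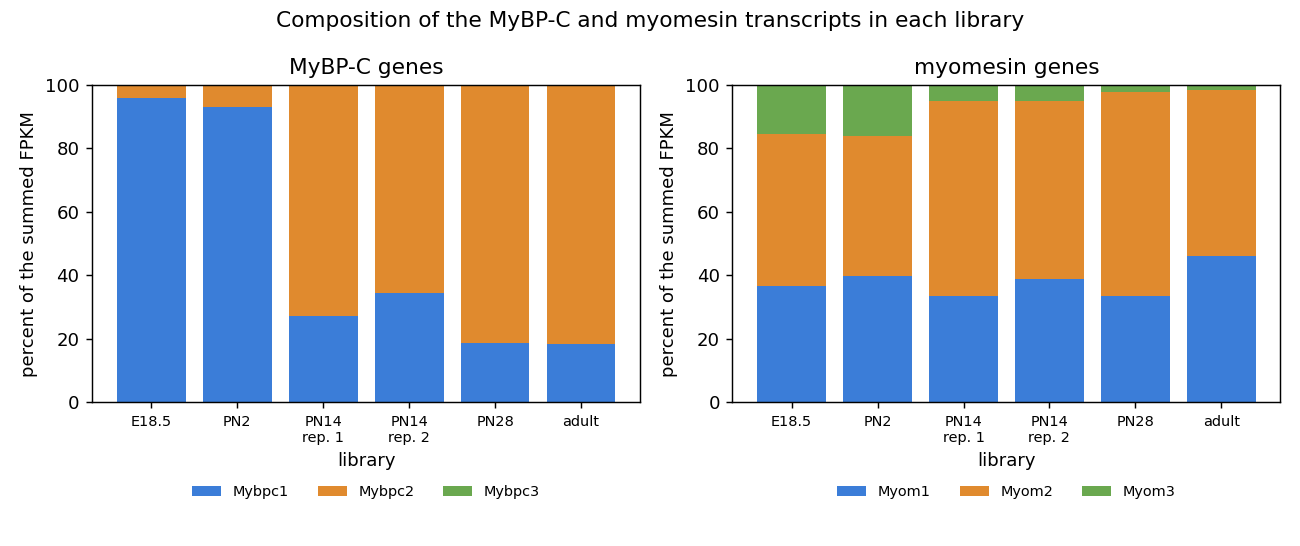
Percent of the summed FPKM of the 3 MyBP-C genes (left) and of the 3 myomesin genes (right) taken by each gene, with 1 bar per library and colours for genes. Mybpc2 fills 4.15% and 6.95% of the bars for E18.5 and PN2 and between 65.6% and 81.8% of the others, Mybpc3 is too small to be seen, and Myom3 shrinks from 15.4% to 1.73%.

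In the fit across all genes (edgeR's quasi-likelihood test on TMM-normalized counts, with a call needing a Benjamini-Hochberg adjusted p under 0.05 together with a log2 fold change whose size was 1 or more), Mybpc2 rose from PN2 to PN14 by 4.87 on the log2 scale (SE 1.04, adjusted p = 0.0209) and from E18.5 to adult by 6.24 (SE 1.16, adjusted p = 0.00664). The log2 fold change of Mybpc1 was -0.10 (SE 0.584, adjusted p = 0.906) from PN2 to PN14 and -0.46 (SE 0.678, adjusted p = 0.593) from E18.5 to adult, and neither passed. The Mybpc1 result depends on the scale. TMM factors ran from 1.45 at E18.5 to 0.714 in the adult. Normalized counts are given as CPM, the counts scaled to the library total times its TMM factor. For Mybpc1 they were therefore 2889 CPM at E18.5 and 2104 in the adult. That is a narrower gap than in FPKM, which is scaled to the library total alone. With library size alone the Mybpc1 value from E18.5 to adult was -1.48 (adjusted p = 0.000121), against a median over all genes tested of -1.08 on that scale and -0.05 with TMM.

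The promoters of the pair that exchanged places are shown with those of Mybph and Myom3, which had yet other time courses. RefSeq promoters were found for 7 of the 8 genes, all but Myom2, in a table built on GRCm38.p6, and each was placed in mm9, the build of the study, by an exact match. The 250 bases before the start are given in the direction of transcription, with matches on either strand in capitals. The Mybpc1 window (chr10:88067898-88068147, minus strand) holds 2 E-boxes (CANNTG) and no other motif searched, and the Mybpc2 window (chr7:51780040-51780289, minus strand) an E-box and, on the other strand, a muscle CAT motif (CATTCC). The Mybph window (chr1:136089775-136090024, plus strand) holds an E-box directly followed by a muscle CAT motif on the other strand and TATAAA on the other strand, and the Myom3 window (chr4:135315380-135315629, plus strand) an E-box and a MEF2 site.
Mybpc1: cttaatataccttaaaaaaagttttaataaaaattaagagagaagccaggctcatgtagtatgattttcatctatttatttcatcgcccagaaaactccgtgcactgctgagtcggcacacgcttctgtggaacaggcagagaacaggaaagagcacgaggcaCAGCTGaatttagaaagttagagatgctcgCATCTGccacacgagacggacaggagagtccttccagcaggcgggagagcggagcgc
Mybpc2: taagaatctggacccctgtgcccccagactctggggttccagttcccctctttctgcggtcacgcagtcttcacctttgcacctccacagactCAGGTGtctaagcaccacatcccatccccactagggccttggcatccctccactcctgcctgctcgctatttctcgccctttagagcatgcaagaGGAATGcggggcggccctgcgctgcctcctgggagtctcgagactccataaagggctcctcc
Mybph: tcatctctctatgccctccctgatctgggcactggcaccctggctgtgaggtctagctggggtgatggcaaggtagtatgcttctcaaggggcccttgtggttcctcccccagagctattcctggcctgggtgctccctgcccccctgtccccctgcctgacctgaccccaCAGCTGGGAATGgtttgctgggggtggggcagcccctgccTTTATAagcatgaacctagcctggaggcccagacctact
Myom3: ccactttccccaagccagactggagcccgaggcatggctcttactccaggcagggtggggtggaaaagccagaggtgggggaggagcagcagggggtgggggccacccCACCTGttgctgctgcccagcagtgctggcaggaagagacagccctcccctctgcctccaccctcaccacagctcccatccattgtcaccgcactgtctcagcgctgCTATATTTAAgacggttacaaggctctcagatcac
No matches overlap in these 4 windows. E-boxes were in 66.2% of all 32851 promoter windows of this length, the muscle CAT motif in 12.6%, TATAAA in 12.4%, a MEF2 site in 2.9% and a CArG box, found here in Myom1, in 1.5%. The matches are descriptions of letters and not of bound sites.

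Mybpc3, the cardiac form, was at most 0.32 FPKM in this muscle. Its counts were 206 (E18.5), 44 (PN2), 0 and 2 for the PN14 libraries, 0 at PN28 and 42 in adult muscle, and its share of the MyBP-C genes did not exceed 0.0283%. The gene was called lower at PN14 than at PN2 (edgeR adjusted p = 0.0163). The PN2 value was 6.80-fold above a floor of 3 counts in PN14 replicate 1, which had 0 counts. It passed the count filter only through the libraries where it was higher, and with a mean of at least 1 CPM required it was not tested. The adult value was 16.0-fold above a floor of 3 counts at PN28. The difference was not called (edgeR adjusted p = 0.0716) but passed with library size alone (0.00012), in edgeR's exact test (1.23e-05) and with no filter (0.0184). It did not pass with DESeq2's size factors, DESeq2's Wald test gave it no adjusted p, and the filter on mean CPM left it untested. Beside these values, the cardiac marker Tnni3 lay between 0.55 and 2.42 FPKM, and Myh6 was at 25.5 FPKM at E18.5, 51.3 and 45.7 at PN14 and 13.1 in the adult. Myh6 was thus highest at PN14, where Mybpc3 had 0 and 2 counts. The slow fibre chain Myh7 was also highest there, at 403 and 363 FPKM, against 207 at E18.5 and 115 in the adult. Tnni3 was highest at PN14 too, at 1.28 and 2.42 FPKM, whereas the slow troponin I gene Tnni1 was highest at E18.5, at 812 FPKM. The source of the Myh6 and Mybpc3 reads was not tested.

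Mybph was the only one of the 8 genes called between PN28 and adult, an interval in which 0.521% of all genes tested were called. Its FPKM was 167 at E18.5, 103 at PN2, 206 and 176 for the PN14 libraries, 193 at PN28 and 15.6 in adult muscle. The adult library, with 3951 counts against 51059 at PN28, stood far below all the others. The drop from PN28 to adult was called at -3.50 on the log2 scale (SE 0.391, edgeR adjusted p = 0.0476), as were the rise from PN2 to PN14 by 1.56 (SE 0.331, adjusted p = 0.0202) and the E18.5 to adult difference of -2.40 (SE 0.373, adjusted p = 0.0039). Both interval calls have a limit. The late call passed the threshold narrowly and compares 1 mouse with 1 mouse, and it was lost when only genes with a mean of at least 1 CPM were tested (adjusted p = 0.0771, over a range from 2.52e-20 to 0.0771 in the 6 alternatives). With library size alone the early rise came to 0.89, under the fold threshold. From PN28 to adult the cardiac actin gene Actc1, also used by embryonic skeletal muscle, was the only called gene of the 6 in the embryonic and neonatal list, going from 2864 to 11.1 FPKM (log2 fold change -7.87, SE 0.989, edgeR adjusted p = 0.0499).

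Of the myomesin genes, Myom3 fell, Myom1 rose over the whole course, and the change of Myom2 did not pass the test. Myom1 FPKM was 155 at E18.5, 204 at PN2, 227 and 229 for the PN14 libraries, 238 at PN28 and 262 in adult muscle. Myom2 FPKM was 203 at E18.5, 228 at PN2, 413 and 333 for the PN14 libraries, 457 at PN28 and 298 in adult muscle. In FPKM Myom1 thus stood higher at each later stage and varied little within PN14, whereas Myom2 peaked at PN28. In TMM-normalized counts the PN14 libraries lay further apart for Myom1, at 1444 and 1222 CPM. The adult Myom2 value was below both PN14 libraries in FPKM, but in TMM-normalized counts, at 2054 CPM, it lay between them (2415 and 1626). Myom3 FPKM was 65.2 at E18.5, 82.9 at PN2, 34.2 and 29.3 for the PN14 libraries, 14.7 at PN28 and 9.84 in adult muscle. After PN2 no Myom3 value reached those of the earlier libraries.

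From E18.5 to adult Myom1 rose by 1.78 on the log2 scale (SE 0.523, edgeR adjusted p = 0.0308) and Myom3 fell by 1.70 (SE 0.341, adjusted p = 0.0086), while Myom2 had a log2 fold change of 1.58 (SE 0.620, adjusted p = 0.0746). No myomesin gene was called within an interval. From PN2 to PN14 the log2 fold change was 0.84 (SE 0.457, adjusted p = 0.202) for Myom1, 1.39 (SE 0.561, adjusted p = 0.108) for Myom2 and -0.71 (SE 0.280, adjusted p = 0.102) for Myom3. These calls vary with the setting. The Myom1 rise was 0.76 (adjusted p = 0.0624) with library size alone, a scale on which Myom3 passed already from PN2 to PN14 (-1.38, adjusted p = 4.69e-05), and Myom2 from PN2 to PN14 passed in DESeq2's Wald test (adjusted p = 0.000111) and in edgeR's exact test (adjusted p = 0.00397).

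Within the summed FPKM of the 3 myomesin genes, Myom2 was the largest share in each library, at 48.0% at E18.5, 44.3% at PN2, 58.8% ± 3.56 (SD, n = 2) at PN14, 64.4% at PN28 and 52.3% in adult muscle. Myom1 took between 33.5% at PN28 and 45.9% in the adult. The Myom3 share was 15.4%, 16.1%, 5.01% ± 0.0833 (SD, n = 2), 2.07% and 1.73% from E18.5 to adult. There were 2.38 Myom1 transcripts per Myom3 transcript at E18.5 and 26.6 in the adult. The summed level of the family lay between 424 FPKM at E18.5 and 709 at PN28.

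Obsl1 FPKM was 74.5 at E18.5, 58.1 at PN2, 27.6 and 31.6 for the PN14 libraries, 22.5 at PN28 and 8.85 in adult muscle. Each later stage was thus below the one before it. From E18.5 to adult it fell by 2.05 on the log2 scale (SE 0.277, edgeR adjusted p = 0.00265), the smallest adjusted p of the 8 genes in that comparison. The PN28 to adult value was -1.21 (SE 0.270, adjusted p = 0.104) and passed in 3 of the 6 alternatives, with library size alone, in DESeq2's Wald test and in edgeR's exact test. Obsl1 also belongs to the 3M complex, a ubiquitin ligase assembly of the cullin Cul7 and the adaptor Ccdc8 in which mutations cause a growth disorder. All 4 genes of that list, Obsl1 included, were called lower in the adult than at E18.5, as were 23.6% of all genes tested, Ccdc8 by a log2 fold change of -4.98 (SE 0.358), Cul7 of -3.86 (SE 0.295) and the F-box gene Fbxw8 of -1.06 (SE 0.212).

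Set side by side, the levels of the 8 genes took a new order. At E18.5 Mybpc1 stood first at 1082 FPKM, followed by Myom2 at 203, Mybph at 167, Myom1 at 155, Obsl1 at 74.5, Myom3 at 65.2, Mybpc2 at 46.8 and Mybpc3 at 0.32. In the adult Mybpc2 stood first at 1735 FPKM, then Mybpc1 at 387, Myom2 at 298, Myom1 at 262, Mybph at 15.6, Myom3 at 9.84, Obsl1 at 8.85 and Mybpc3 at 0.07. Mybpc2 thus moved from the seventh place to the first, and Myom2 was above Myom1 at both ends. At PN14, the stage with a spread, the ranges of neighbouring genes did not overlap except for Myom3 (29.3 to 34.2) and Obsl1 (27.6 to 31.6).

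Taken by interval, between E18.5 and PN2 none of the 8 genes was called in edgeR's quasi-likelihood test, where 0.0296% of all 16882 genes tested were. In that test 1 of the 8, Mybpc3, had an unadjusted p under 0.05, as had 1121 of the 16882. Of the 8, edgeR's exact test called that gene alone, beside 346 of the 16882, and DESeq2's Wald test called 0. From PN2 to PN14, 3 of the 8 were called (Mybpc2 and Mybph higher, Mybpc3 lower), against 23.0% of all genes (11.8% higher and 11.2% lower). Mybpc3 passed the count filter only through the libraries where it was higher, so its call is no independent result. With a mean of at least 1 CPM required it was not tested, and the calls were 2. From PN14 to PN28 there was no call among the 8 by edgeR's quasi-likelihood test, against 0.0178% of all genes. In that test 1 of the 8, Myom3, had an unadjusted p under 0.05, as had 1420 of the 16882. The exact and Wald tests called 0 of the 8, beside 241 of the 16882 in the exact test. From PN28 to adult Mybph alone of the 8 was called, as given above. From E18.5 to adult 5 of the 8 were called, Mybpc2 and Myom1 higher and Myom3, Mybph and Obsl1 lower, against 44.9% of all genes, with 21.4% rising and 23.6% falling. The counts from PN2 to PN14 and from E18.5 to adult were therefore near the share of all genes. The median log2 fold change of the 8 genes was 0.37 from PN2 to PN14 and -0.79 from E18.5 to adult, beside -0.01 and -0.05 over all genes tested.

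**Figure D3:**
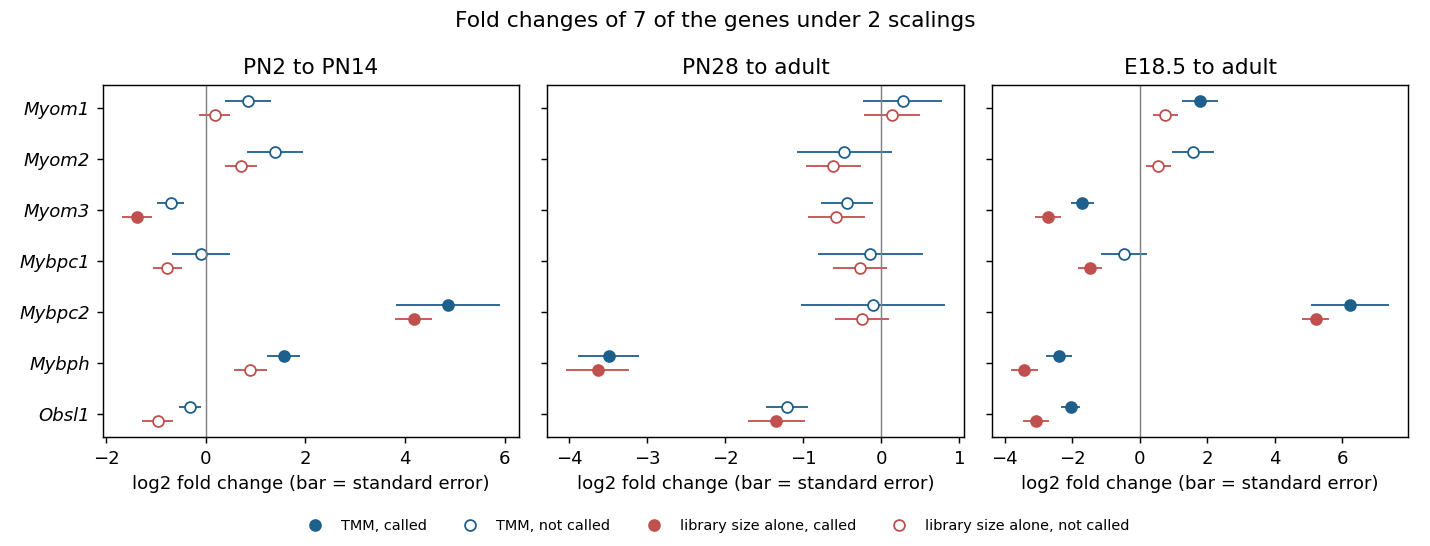
Log2 fold changes (horizontal axes) of the 7 genes other than Mybpc3 in 3 comparisons, with TMM (blue) and with library size alone (red). Bars are standard errors worked back from the test, and filled points were called. Mybpc2 lies at 4.87 and 6.24 with TMM in the first and last panel, Mybph at -3.50 in the middle one, and the red points of the outer panels lie to the left of the blue ones.

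With library size alone the median over all genes moved to -0.66 (PN2 to PN14) and -1.08 (E18.5 to adult). On that scale 3 of the 8 genes were called from PN2 to PN14 (Mybpc2, Mybpc3 and Myom3), against 34.5% of all genes, and 6 from E18.5 to adult (the 8 without Myom1 and Myom2), against 53.6%. Both counts include Mybpc3, with the same limit from the count filter. No gene of the 8 changed direction between the scales in any comparison. The PN14 libraries give the error to hold against these folds. Replicate 1 exceeded replicate 2 in normalized CPM by 1.91-fold for Mybpc2, 1.49-fold for Myom2, 1.40-fold for Mybph and Myom3, 1.36-fold for Mybpc1, 1.18-fold for Myom1 and 1.05-fold for Obsl1. Over all genes tested the absolute log2 ratio between them had a median of 0.20 and a 90th percentile of 0.62, so Mybpc2 differed more between these mice than the 90th percentile. Leaving out either replicate gave a Mybpc2 log2 difference from PN2 of 4.33 or 5.26, and for Mybpc1, at -0.10 with both, -0.34 or 0.10.

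Thick filament proteins can also be set against the myosin they bind. The summed FPKM of the sarcomeric myosin heavy chain genes Myh1, Myh2, Myh3, Myh4, Myh7 and Myh8 was 4134 at E18.5, 5054 at PN2, 9602 and 9170 for the PN14 libraries, 10975 at PN28 and 12920 in adult muscle. The embryonic and neonatal chains Myh3 and Myh8 made up 91.5% and 90.5% of it at E18.5 and PN2 and at most 0.625% afterwards, when the fast chains Myh1, Myh2 and Myh4 held between 95.4% and 99.1%. The exchange of heavy chains thus fell in the same interval as that of the MyBP-C genes. Per 100 FPKM of heavy chain, Mybpc1 and Mybpc2 together stood at 27.3 at E18.5, 23.8 at PN2, 26.5 and 19.3 for the PN14 libraries, 23.0 at PN28 and 16.4 in adult muscle. PN2 and PN28 thus lay within the range of the PN14 pair, E18.5 just above it and the adult below it. Mybpc1 alone went from 26.2 to 2.99 and Mybpc2 from 1.13 to 13.4 on this scale.

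**Figure D4:**
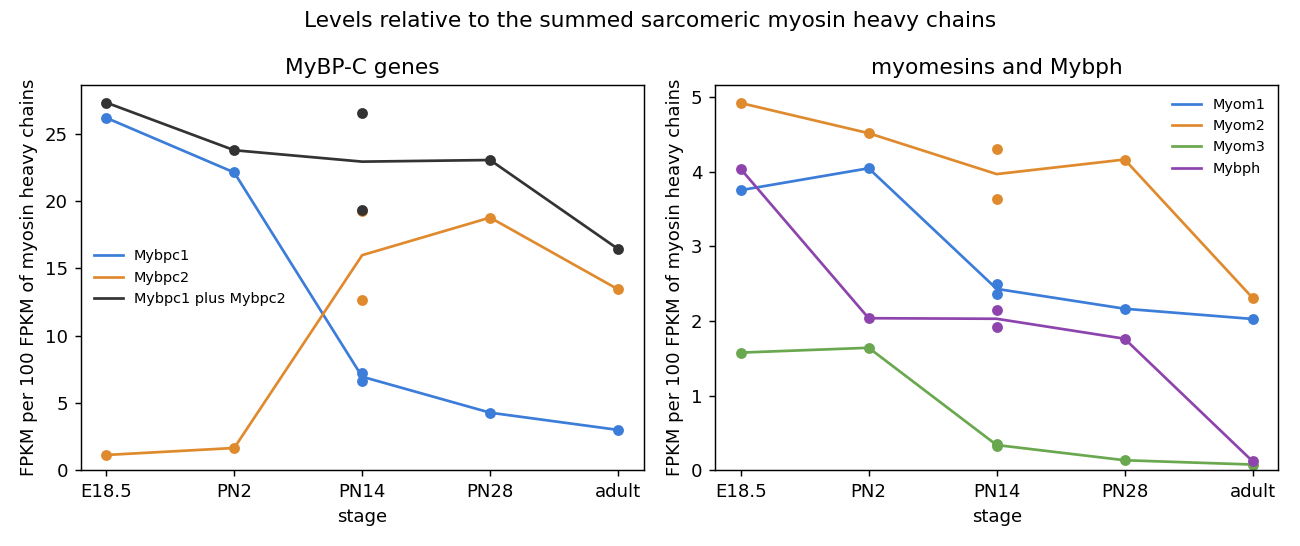
FPKM per 100 FPKM of the summed sarcomeric myosin heavy chains (vertical axes) by stage, for the MyBP-C genes (left) and for the myomesins and Mybph (right); points are libraries and lines join stage means. Mybpc1 drops from 26.2 to 2.99 while the sum with Mybpc2 runs from 27.3 to 16.4, and at PN14 the point of the sum at 19.3 covers that of Mybpc2 in the other library.

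The M-band genes were set against the heavy chains in the same way. The 3 myomesins together were at 10.3 per 100 FPKM of heavy chain at E18.5, 10.2 at PN2, 7.02 and 6.45 for the PN14 libraries, 6.46 at PN28 and 4.41 in adult muscle. Myom2 alone was at 4.92, 4.52, 4.31 and 3.63, 4.16 and 2.31 in the same libraries, so that its PN28 value lay within the PN14 pair. Obsl1 was at 1.80 at E18.5 and 0.0685 in the adult, and Mybph at 4.04 and 0.121. The adult values given here lay below both PN14 libraries, and they are ratios with no test.

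The partners of the 8 genes were read from lists. Of 15 M-band partners, 3 were called higher from PN2 to PN14 and none lower (of all genes tested, 11.8% and 11.2%), with a median log2 fold change of 1.13. The 3 were the muscle ubiquitin ligase genes Trim63 (1.92, SE 0.363, edgeR adjusted p = 0.0151) and Trim54 (1.26, SE 0.327, adjusted p = 0.0346), and the ankyrin gene Ank1 (1.41, SE 0.325, adjusted p = 0.025). From E18.5 to adult 9 of the 15 were called higher and 1 lower (of all genes tested, 21.4% and 23.6%), with a median of 1.70. Among those that rose were Trim63 (3.75, SE 0.424) and Trim54 (3.31, SE 0.389), and the one that fell was the LIM-domain gene Fhl2 (-2.49, SE 0.279, adjusted p = 0.00183). Titin itself (Ttn), which carries the M-band proteins at its end, had a log2 fold change of 2.03 (SE 1.07, adjusted p = 0.156), from 55.7 to 111 FPKM. With library size alone the calls among these partners were 2 higher and 1 lower from PN2 to PN14, when 5.06% of all genes were called higher and 29.4% lower, and 6 higher and 1 lower from E18.5 to adult, when 7.98% were called higher and 45.6% lower.

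Kinase and phosphatase genes whose products are known to act on MyBP-C, or belong to the same kinase families, were followed in a list of 10. From E18.5 to adult 6 were called higher and 1 lower, beside 21.4% and 23.6% of all genes tested. The calcium/calmodulin-dependent kinase gene Camk2g (2.88, SE 0.417, edgeR adjusted p = 0.00311), Camk2a (2.47, SE 0.425) and the protein kinase C gene Prkcq (2.33, SE 0.229) had the largest called rises. Prkaca, the catalytic subunit of protein kinase A, was the gene called lower, with a log2 fold change of -1.84 (SE 0.380, adjusted p = 0.00955), and stood at 474 FPKM at E18.5 and 65.0 in the adult. From PN2 to PN14, 3 of the 10 were called higher and 1 lower, beside 11.8% and 11.2% of all genes, with a median of 0.56 against -0.01 over all genes. With library size alone the list median from PN2 to PN14 was -0.10 against -0.66 over all genes. The calls were 0 higher and 1 lower, beside 5.06% and 29.4% of all genes. On that scale the calls from E18.5 to adult were 4 higher and 2 lower, beside 7.98% and 45.6% of all genes.

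The fibre type genes were counted in the same way, for a comparison in which 21.4% of all genes were called higher and 23.6% lower. From E18.5 to adult 4 of the 8 fast fibre genes were called higher and none lower, with a median log2 fold change of 3.48, and the largest called rises were those of Myh4 (9.13, SE 2.87, edgeR adjusted p = 0.0385), Myh1 (5.79, SE 0.997) and Tnni2 (3.25, SE 1.09). Scaling to library size alone gave 7 of the 8 called higher, on a scale where 7.98% of all genes were called higher and 45.6% lower. Of 7 slow fibre genes 1 was called higher, the regulatory light chain gene Myl2 (1.67, SE 0.426), and 1 lower, the slow troponin I gene Tnni1 (-2.18, SE 0.398), with a median of 0.18 against -0.05 over all genes. The slow fibre median with library size alone was -0.85 against -1.08 over all genes. On that scale 0 were called higher and 3 lower, beside 7.98% and 45.6% of all genes. All 6 embryonic and neonatal genes were called lower, led by Myh8 (-12.29, SE 1.68), Myh3 (-10.79, SE 0.978) and the fetal acetylcholine receptor subunit Chrng (-8.29, SE 0.546). Of 12 thick filament genes, which share members with the other lists, 5 were called higher and 3 lower, with Mylk2, the skeletal myosin light chain kinase, at 4.53 (SE 0.797). Of the marker lists, 3 of 3 satellite cell and 4 of 4 fibroblast genes were called lower in the adult, as were 2 of the 5 cardiac genes tested (Gata4 and Ryr2), and none of the 4 skeletal fibre or 4 endothelial genes was called by edgeR's quasi-likelihood test with TMM. On the scale of library size alone 3 of the 4 skeletal fibre genes were called higher and all 4 endothelial genes lower. Of all genes, 7.98% were called higher and 45.6% lower on that scale.

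The deposited counts and FPKM also hold a trace of transcript form. A gene's count divided by its FPKM and by the library's fragments on genes gives, in kilobases, the effective transcript length that the quantification used, which changes when a gene's transcript models take different shares of its reads. For Myom1 it was 5.28 kb at E18.5 and at PN2, 5.36 in both PN14 libraries, 5.32 at PN28 and 5.30 in the adult, a range of 1.52% of its mean. The PN14 pair stood together and apart from the other 4 libraries. For the other 6 genes where it could be computed the range was at most 0.208%. Among 5564 genes with at least 5 FPKM in each library, 495 (8.9%) had a range over 1%, and the median was 0.139%.

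**Figure D5:**
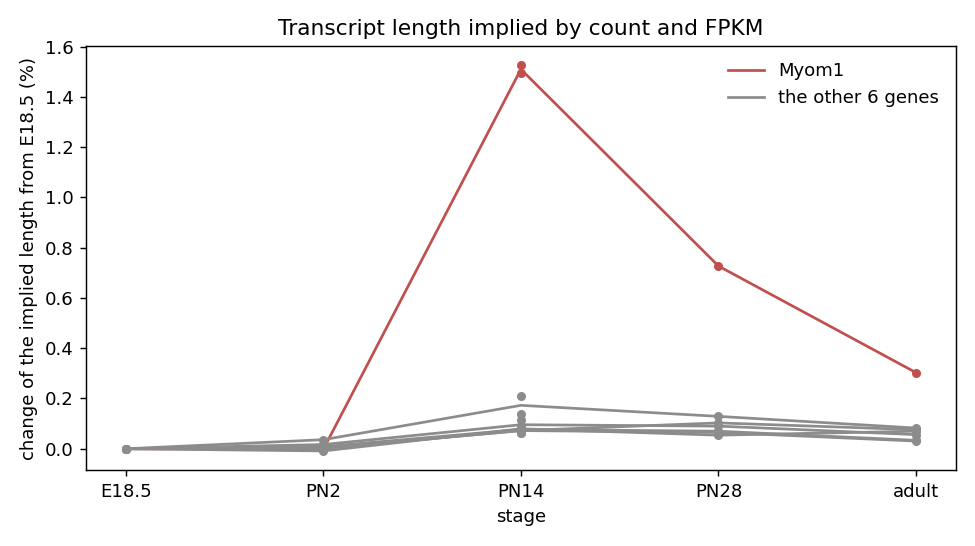
Change from E18.5 (percent, vertical axis) of the effective transcript length implied by count and FPKM, by stage, for Myom1 (red) and the other 6 genes where it could be computed (grey); points are libraries and lines join stage means. Myom1 spans 1.52% of its mean and each grey gene at most 0.208%.

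Myomesin is known in forms with and without an alternatively spliced segment. In the GENCODE M1 annotation of mm9, Myom1 lies at chr17:71368861-71476196 (plus strand) with 2 coding transcripts, one of 37 exons and 5354 bases and one of 38 exons and 5602 bases. The longer one alone holds exon 18 (chr17:71431543-71431836), whose 294 bases are 98 codons and keep the reading frame. It is shown whole, since it is the only exon of either form that overlaps no exon of the other. The annotated forms also differ elsewhere, because their total lengths lie closer together than the 294 bases of this exon.
Myom1 exon 18: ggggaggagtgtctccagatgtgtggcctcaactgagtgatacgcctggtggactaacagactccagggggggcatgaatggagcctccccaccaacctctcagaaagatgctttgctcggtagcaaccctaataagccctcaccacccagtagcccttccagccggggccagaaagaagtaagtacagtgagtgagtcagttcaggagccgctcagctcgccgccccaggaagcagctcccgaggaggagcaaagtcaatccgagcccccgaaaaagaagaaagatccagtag
Whether this exon takes part in the shift of implied length was not tested, because the deposited table gives values per gene and the study used RefSeq models.

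The other genes lie at chr8:15057653-15133541 (Myom2), chr4:135315630-135371479 (Myom3), chr10:87981024-88067897 (Mybpc1), chr7:51757088-51780039 (Mybpc2), chr2:90958301-90976673 (Mybpc3), chr1:136090025-136097808 (Mybph) and chr1:75475885-75503027 (Obsl1) in mm9. The myomesin genes have 38, 37 and 37 exons in their longest annotated form, the MyBP-C genes 29, 28 and 35, Mybph 11 and Obsl1 20. Mybph overlaps Adora1 and Obsl1 overlaps Tmem198, each on the opposite strand, Obsl1 also overlaps Chpf on its own strand, and Myom1 and Myom2 each overlap a noncoding entry. Counting by strand is not given in the sources used here, so reads from the shared stretches cannot be assigned with certainty.

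Genes with the most similar time course were found for the 7 genes with a mean of at least 1 CPM, by the root mean square distance of centred log2 normalized CPM over the 5 stage means, among 13117 genes. The nearest to Myom1 were Macrod2 (0.03), Def8 (0.04) and Mypn (0.04), the last of them encoding the sarcomeric protein myopalladin. The nearest to Myom2 was H2-M3 (0.04), to Myom3 Gng2 (0.10), to Mybpc1 Dffb (0.03) and to Obsl1 Pcdhb7 (0.07). The nearest to Mybpc2 and Mybph lay further off, Hr (0.19) and Scml4 (0.44). The distance is not scaled to the size of a profile. Centred profiles ran from -3.82 to 2.52 for Mybpc2 and from -0.30 to 0.20 for Mybpc1, so their distances are not on a like scale. With 5 stage means, 4 of them from a single library, these distances are descriptions.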

How the data were processed

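Polyadenylated RNA of 6 gastrocnemius libraries was analysed from 1 deposited table. The authors aligned paired reads to mm9 with TopHat2 2.0.5 and used RSEM on RefSeq models to obtain the deposited expected counts, which are not normalized. The FPKM values were made by the authors from the same reads, scaled to effective length and to the fragments on genes. FPKM was used to compare genes within a library and expected counts, rounded, for tests.

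Counts were fitted in R 4.3.3 with edgeR 4.0.16 (TMM, filterByExpr by stage, 16882 genes, quasi-likelihood test, 6 libraries in a single fit, 5 stages). The PN14 pair gave 1 residual degree of freedom with a biological coefficient of variation of 0.188 in common, and p-values measure that spread only. Each SE was worked back from the quasi-likelihood test, as the size of the log2 fold change over the square root of its F statistic. The script was tested on simulated data. Alternatives were library size alone, DESeq2's size factors, DESeq2's Wald test (1.42.0), edgeR's exact test, no filter, a mean of at least 1 CPM, either PN14 replicate left out, and shares from expected counts. Folds over a floor set 3 counts in a library with 0 counts. They leave out the counting error of the higher library and are no strict bounds.

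The 8 genes and the lists (M-band partners, thick filament, slow fibre, fast fibre, embryonic and neonatal, MyBP-C kinases and phosphatase, 3M complex, and markers of skeletal fibre, cardiac muscle, satellite cell, fibroblast and endothelium) were chosen with earlier results of these data known. All 8 genes were named, and of a list at most the 3 genes with the largest called change in each direction, besides Ttn and the myosin heavy chains. A gene of the M-band partner list is counted but not reported by name here. Actc1, Mylk2 and single marker genes were named after their values were seen. Promoter windows came from a RefSeq table, and positions and exons from GENCODE M1. Tables and figures were made with Python 3.11.15.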

Additional observations from a re-analysis of the deposited data

How the results depend on the processing

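No called direction of the 8 genes turned under any alternative run, and the untested PN2 to PN14 difference of Mybpc1 turned from -0.10 to 0.10 without PN14 replicate 2. Of their log2 fold changes with a test, 217 kept their side of the threshold, 15 passed it and 3 fell short of it under an alternative. The number of the 8 genes called from E18.5 to PN2 was 1 with edgeR's exact test in place of 0, and from PN14 to PN28 it was 1 with library size alone in place of 0. From PN28 to adult it was 3 with library size alone, 2 with DESeq2's Wald test, 3 with edgeR's exact test, 2 with no filter and 0 with a mean of at least 1 CPM, in place of 1. The last filter drops Mybpc3, and with it 2 of the genes were called from PN2 to PN14 in place of 3. Of the alternatives, only library size alone and the exact test have counts over all genes here. Other counts of the 8 stand without a share. Over all 16882 genes tested the count of calls was 5 from E18.5 to PN2 (241 with library size alone, 346 with the exact test), 3884 from PN2 to PN14 (5825 with library size alone), 3 from PN14 to PN28 (262 and 241) and 88 from PN28 to adult (868 and 1146). The cause was not tested. Taken from expected counts, which are not per length, the Myom3 share of the myomesin genes was 16.6% at E18.5, 17.3% at PN2, 5.44% for the PN14 mean, 2.27% at PN28 and 1.88% in adult muscle, against 15.4%, 16.1%, 5.01%, 2.07% and 1.73% of FPKM. Leaving out either PN14 replicate left no residual degree of freedom, so those are values with no test. No paired analysis was possible because the stages compared share fewer than 2 replicate numbers. The 7 genes other than Mybpc3 had at least 3951 counts in each library.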

Other observations

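Mybphl, a close relative of Mybph known from heart atria, was at most 0.15 FPKM in these libraries, beside up to 206 FPKM for Mybph.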
